A study of Mus musculus with 2 samples.

Results

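Pericytes are the mural cells that sit on capillaries inside the endothelial basement membrane. In a library sorted for type 2 innate lymphoid cells (ILC2s) of the mouse fetal lung, 302 of 8598 singlet barcodes (3.51%) carried pericyte transcripts and are described here. They were selected on 3 pericyte genes and 1 mast cell gene: a member held at least 3 unique molecular identifiers (UMIs, each counting 1 captured RNA molecule) of Higd1b, Cox4i2 and Gucy1a1 together and at most 3 UMIs of Hdc, the histidine decarboxylase of mast cells and basophils. A singlet had at least 200 genes, at most 5% mitochondrial UMIs, and 1 dominant hashtag, with no fewer than 10 UMIs and at least 3-fold more than any other. The matrix held 10648 barcodes, each listed once, and 10409 of them passed the gene and mitochondrial limits.

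The fetuses were wild-type C57BL/6J mice, harvested at gestation day 18 from mothers that were 9 weeks old. The DEX mothers drank water with 1.3 µg/ml of dexamethasone, a synthetic glucocorticoid, from gestation day 12, and the PBS mothers drank water with phosphate-buffered saline. The lungs of a litter were pooled (DEX-1, 8 fetuses; DEX-2, 9; PBS-1, 5; PBS-2, 8) and tagged with 1 hashtag antibody per litter. Viable cells that carried CD45 and ST2 but no lineage marker were sorted and loaded together for 10x Genomics 5′ sequencing. By the labels and hashtags each group had 2 litters, which served as replicates; a figure legend of the study instead names a single dam per group for these panels. Were the hashtags of a group from fetuses of the same dam, every SD and test here would measure the spread between tagged pools only. With 4 litters, an exact permutation test over litters could not give a p under 0.333, and differences between fetuses of a litter could not be measured.

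Pericytes hold on to the endothelium through platelet-derived growth factor B, which endothelial cells release and the pericyte receptor PDGFRβ binds, and through Notch signals received by NOTCH3. They respond to nitric oxide through soluble guanylyl cyclase, an enzyme of 2 subunits that makes cyclic GMP, and they regulate tone with potassium and calcium channels and contractile proteins. In the lung they are also known for mitochondrial subunits used at low oxygen, among them COX4I2 and NDUFA4L2, in place of the widespread COX4I1 and NDUFA4. Pericytes carry neither CD45 nor ST2, the markers on which the cells were sorted.

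Members were deep barcodes with little of the sorted population's RNA. Their median depth was 25676.5 UMIs (range 555 to 127338) and 5428 genes, against 7955 UMIs and 2638.5 genes in the other 8296 singlets, so that 3.51% of singlets held 9.33% of singlet UMIs. A limit on raw UMIs is easier to meet in a deep barcode, so this contrast was partly fixed by the selection. Within the Hdc limit, singlets with no UMI of the 3 rule genes had a median of 7530 UMIs and those with 2 had 18193. Ptprc, which encodes CD45, had a UMI in 8.94% of members and 47.9% of other singlets, and Il1rl1, which encodes ST2, in 7.95% and 56.7%. The median own hashtag of members was 275.5 UMIs, against 674 in other singlets. Among these, fibroblast-marked and endothelial-marked singlets (limits below) and epithelial-marked singlets (Sftpb of 5 or more) had medians of 89, 107 and 89 hashtag UMIs. In the same order, Ptprc had a UMI in 7.82, 6.37 and 2.71% of them and Il1rl1 in 7.17, 5.96 and 2.92%. Of 480 barcodes that met the marker and quality limits, 151 (31.5%, exact 95% interval 27.3 to 35.8%) carried several hashtags and 27 had fewer than 10 hashtag UMIs, and these 178 were not used. Among barcodes without the markers 14.3% carried several hashtags (13.7 to 15.0%), and among those at or above the members' median depth the share was 21.8% (18.9 to 24.9%) without and 23.0% (17.3 to 29.5%) with the markers. The comparison by depth covers only the deeper barcodes. With neither the Cldn5 nor the Sftpb limit met (limits below), 80 of 183 barcodes with the markers carried several hashtags (43.7%, 36.4 to 51.2%). Another 26 of these 183 had fewer than 10 hashtag UMIs, and 77 were kept as members. With both limits met, 42 of 127 carried several hashtags (33.1%, 25.0 to 42.0%). A pair of cells from 1 litter shares a hashtag and was not removed. Intervals here cover counting error only.

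The sum of the rule genes was spread widely, and many members sat at its limit. It was 3 in 66 members, 5 or less in 132, 6 to 19 in 69 and 20 or more in 101, with a highest value of 131. Higd1b, a hypoxia-induced mitochondrial protein, had a UMI in 217 members, Cox4i2 in 273, Gucy1a1, the alpha subunit of soluble guanylyl cyclase, in 224, and all 3 in 161. The 157 singlets with a sum of 2, just outside the limit, had a median of 18193 UMIs and 5 UMIs of 26 other pericyte genes, and the 66 members with a sum of 3 had 23722 and 7. In counts per 1000000 UMIs (CPM), these other pericyte genes summed to 360.2 with a sum of 2, 387.0 with a sum of 3 and 2633 with a sum of 20 or more, against 223.7 in singlets with a sum of 0. The barcodes on both sides of the limit were therefore alike by this measure, and those far above it stood apart. Hdc was exactly 3 in 12 members, 1 singlet with a sum of 3 or more held 4 Hdc UMIs and 44 held more than 3.

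Most members also held transcripts of endothelium or epithelium. The limits were 2 UMIs of Cldn5, a tight junction gene of endothelium, and 5 UMIs of Sftpb, the surfactant protein B gene of type 2 alveolar cells; 84 members met the first alone and 56 the second alone. Both limits were met by 85 members (28.1%) and neither by 77 (25.5%). Depth followed these limits: the median was 46967 UMIs in members with both, 27462.5 with Cldn5 alone, 24940.5 with Sftpb alone and 9386 with neither. The rule sum did not, with medians of 9, 8, 4 and 11 UMIs. Across the 302 members, log10 depth correlated with log10 endothelial UMIs (Cldn5 left out) at Pearson's r = 0.62 and with log10 type 2 epithelial UMIs (Sftpb left out) at 0.59, and with the log10 rule sum at 0.10; the points share 1 library and depth enters each count, so these are descriptions.

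The litters differed in how many members were mixed. Both limits were met by 9 of 45 DEX-1 members (20.0%, exact 95% interval 9.58 to 34.6%) and 9 of 74 DEX-2 members (12.2%, 5.71 to 21.8%). Among PBS-1 members 17 of 66 met them (25.8%, 15.8 to 38.0%), and among PBS-2 members 50 of 117 (42.7%, 33.6 to 52.2%). The DEX litters were both below the PBS litters, with a mean of 16.1% ± 5.54 (SD, n = 2) against 34.2% ± 12.0 (SD, n = 2) and p = 0.333 in the two-sided exact permutation test, the smallest value 4 litters allow. Since a limit in UMIs is easier to meet in a deep barcode, members were also thinned to 5000 UMIs, which left 284 of them. Then 36 (12.7%) met both limits, 11.4 and 4.69% of the DEX-1 and DEX-2 members and 8.06 and 20.2% of the PBS-1 and PBS-2 members, so the groups overlapped.

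**Figure D1:**
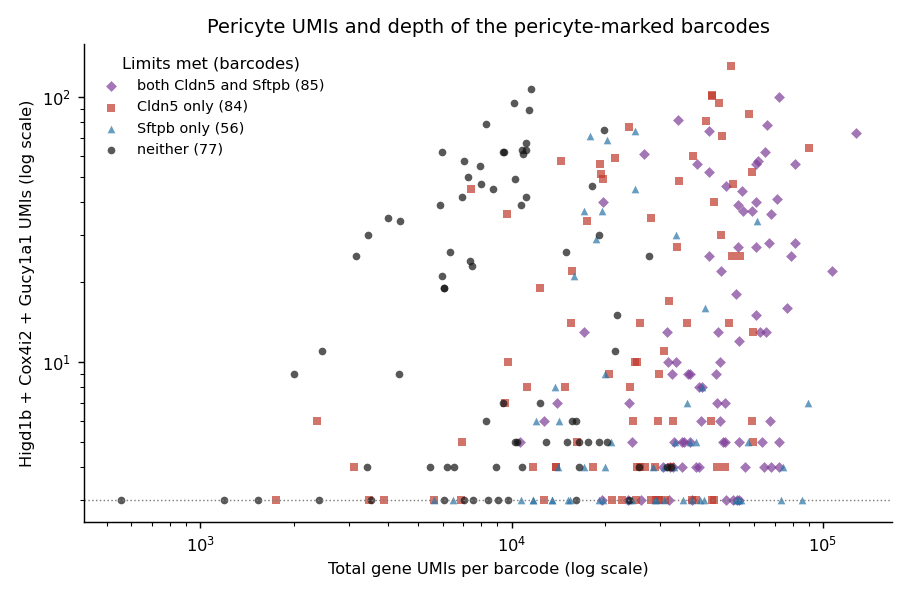
Each point is 1 of the 302 members, with its total gene UMIs on the x axis and its UMIs of Higd1b, Cox4i2 and Gucy1a1 on the y axis, both on log scales; the dotted line marks the limit of 3. Members that met neither limit lie at a median of 9386 UMIs and those with both at 46967, while all 4 kinds span the y axis.

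The pericyte markers stood far above their level in the rest of the library, with and without the mixed members. The comparisons in this and the next paragraphs set members beside the singlets they were separated from, so they are given with no test, and levels are CPM of the pooled barcodes. Of the rule genes, Higd1b was at 233.5, 298.2, 325.0 and 159.2 CPM in members of DEX-1, DEX-2, PBS-1 and PBS-2, and at 4.28 CPM in other singlets. Cox4i2 was at 224.1, 344.0, 275.1 and 216.2 CPM in the same order, against 8.86 CPM, and Gucy1a1 at 174.8, 293.3, 244.5 and 136.6 CPM, against 4.56 CPM. PBS-2 was lowest for each of these genes, and it had the largest share of members with both limits.

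The remaining markers, which the rule did not use, were also above other singlets. Gucy1b1, the beta subunit that pairs with Gucy1a1, was at 122.2, 159.7, 138.3 and 98.3 CPM in members of DEX-1, DEX-2, PBS-1 and PBS-2 and at 5.28 CPM in other singlets. Postn, the matrix protein periostin, was at 168.5, 264.9, 187.7 and 120.9 CPM, against 3.99 CPM. Trpc6, a receptor-operated calcium channel, was at 24.3, 30.5, 29.1 and 21.2 CPM, against 0.315 CPM. Each was higher in members than in other singlets in 4 of 4 litters, and PBS-2 was again lowest.

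Leaving out the 85 members with both limits raised the level of all 6 markers, and leaving out every member with Cldn5 or Sftpb raised it further. The limits and the rule count raw UMIs, and the median depth was 46967 UMIs with both limits and 9386 with neither. Their median rule sums were 9 and 11, so the rise of Higd1b, Cox4i2 and Gucy1a1 in CPM was partly fixed by the selection. Higd1b was at 153.9 CPM in members with both, 300.3 CPM without these and 789.5 CPM in members with neither, Cox4i2 at 165.7, 330.5 and 805.2 CPM, and Gucy1a1 at 103.9, 274.2 and 746.1 CPM. Gucy1b1 was at 73.2, 163.7 and 434.6 CPM, Postn at 68.1, 256.3 and 799.2 CPM, and Trpc6 at 19.6, 29.9 and 90.5 CPM in the same order. The levels in members with neither varied between litters, Postn from 444.4 CPM in PBS-2 to 1298 CPM in DEX-2 and Trpc6 from 25.4 CPM in PBS-2 to 141.8 CPM in DEX-2. PBS-2 had 13 members with neither and PBS-1, DEX-2 and DEX-1 had 20, 27 and 17.

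**Figure D2:**
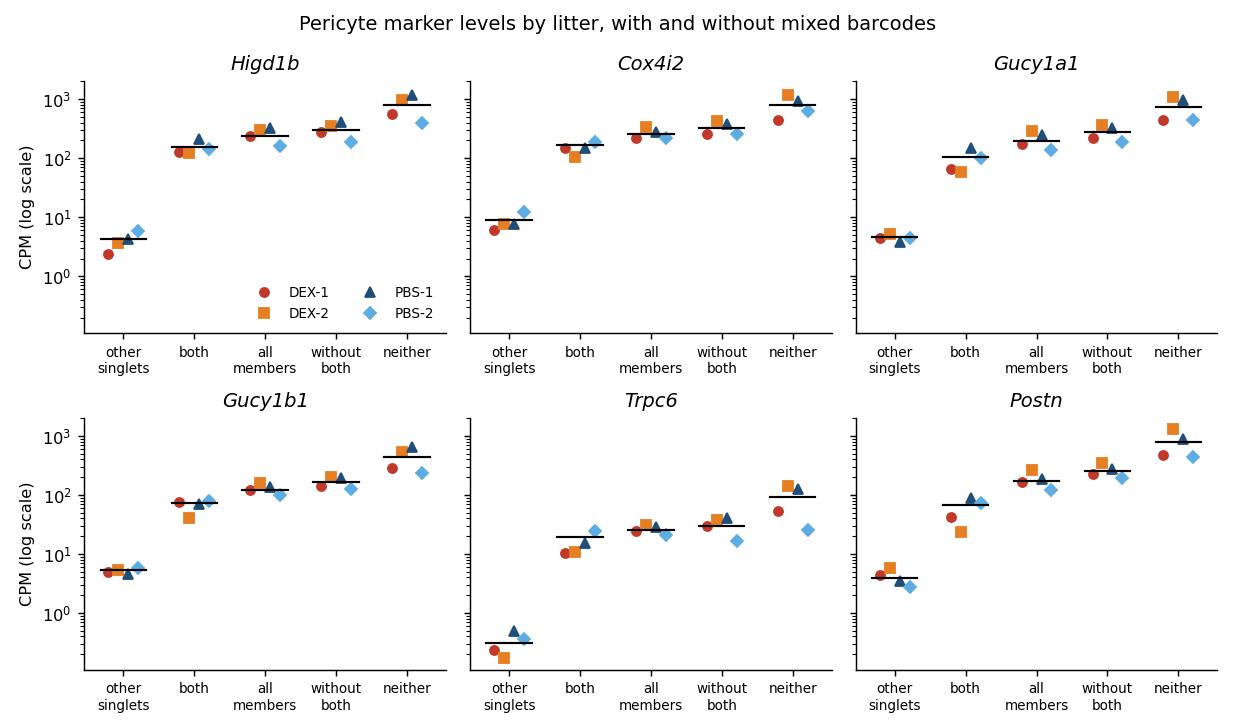
CPM of the 6 markers on a log y axis in other singlets and in 4 sets of members (both limits met, all, without both, neither); symbols are litters and bars are the level of the pooled barcodes. Every litter's members lie above its other singlets for each gene, and for each gene the pooled level climbs from members with both limits to members with neither. Members with neither limit were shallower, so the climb of all 6 markers was partly fixed by the selection.

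Thinning to 5000 UMIs gave the share of barcodes with a marker UMI at equal depth. Gucy1b1 had a UMI in 38.0% of 284 thinned members and 65.6% of 64 thinned members with neither limit (unthinned 68.9% of 302 and 77.9% of 77), against 2.28% of 6222 other singlets. Postn had one in 37.7% and 64.1%, against 1.21%, and Trpc6 in 12.3% and 26.6%, against 0.113%. As a background for free RNA, none of 85 thinned B-marked barcodes (Cd79a, Cd79b and Ms4a1 summing to 3 or more, median 3850.5 UMIs before thinning) held Gucy1b1, Postn or Trpc6, which at 0 of 85 barcodes allows a share of up to 3.53%.

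The genes of the guanylyl cyclase subunits are neighbours on the minus strand of chromosome 3 (GRCm38), Gucy1b1 at 82032006 to 82074689 and Gucy1a1 at 82092427 to 82145789, with 17737 bases between them. Higd1b lies on chromosome 11 at 102835849 to 102838040, Cox4i2 on chromosome 2 at 152754173 to 152765037, Trpc6 on chromosome 9 at 8544142 to 8680741 and Postn on chromosome 3 at 54361109 to 54391037, all on the plus strand. The 250 bases before the annotated starts of the cyclase genes are printed because both subunits were high in the same barcodes; they come from RefSeq on GRCm38.p6, 5′ to 3′ on the gene's strand, and capitals mark TGGGAA or its reverse TTCCCA, the core bound by RBPJ, the DNA-binding partner of Notch receptors. Of 6 markers, 4 had a window in the table.
Gucy1b1, chr3:82074712-82074961: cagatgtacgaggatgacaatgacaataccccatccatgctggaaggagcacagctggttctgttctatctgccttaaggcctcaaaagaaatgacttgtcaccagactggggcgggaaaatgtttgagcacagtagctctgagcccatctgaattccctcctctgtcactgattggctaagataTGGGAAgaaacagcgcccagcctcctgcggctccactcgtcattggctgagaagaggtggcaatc
Gucy1a1, start nearer to Gucy1b1, chr3:82145074-82145323: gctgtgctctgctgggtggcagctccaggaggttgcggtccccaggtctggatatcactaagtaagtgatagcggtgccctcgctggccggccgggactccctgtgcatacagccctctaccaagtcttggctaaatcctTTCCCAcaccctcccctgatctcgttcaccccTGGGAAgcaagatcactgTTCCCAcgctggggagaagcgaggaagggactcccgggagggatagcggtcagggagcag
Gucy1a1, farther start, chr3:82145651-82145900: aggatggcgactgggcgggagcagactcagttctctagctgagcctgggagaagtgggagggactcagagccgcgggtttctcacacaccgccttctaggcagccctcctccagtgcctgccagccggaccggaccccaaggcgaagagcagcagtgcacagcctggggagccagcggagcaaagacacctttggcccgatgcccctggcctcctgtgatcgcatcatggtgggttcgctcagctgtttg
The motif occurs once in the Gucy1b1 window, 3 times in the nearer Gucy1a1 window and not in the farther one. It is common, with 7094 of 32851 windows of this length (21.6%) holding it on either strand.

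Pericyte genes outside the rule followed the markers. Of 26, 23 were higher in members than in other singlets in 4 of 4 litters, where 20.0% of all 23862 genes with a UMI in singlets were, and the exceptions were Angpt1, Anpep and Plxdc1. That share counts genes of any level. Among the 3098 genes at 50 CPM or more in members, 1554 were higher in 4 of 4 litters. Both backgrounds stand behind the counts of the gene lists that follow. In members with neither limit 18 of the 26 were higher in 4 of 4 litters, where 8.36% of all genes were. Ndufa4l2, the hypoxia-linked relative of a respiratory subunit, was at 281.8 CPM in all members, 1114 CPM with neither and 18.97 CPM in other singlets. Pdgfrb, the PDGF-B receptor, was at 44.5, 183.5 and 6.24 CPM, the proteoglycan gene Cspg4 (NG2) at 23.3, 95.4 and 1.29 CPM, and the angiotensin receptor gene Agtr1a at 11.8, 64.0 and 0.259 CPM. Some genes used as general pericyte markers were low: Rgs5 was at 9.83 CPM in all members and 22.9 CPM with neither, Vtn at 4.04 and 10.9 CPM, and Anpep was lower in members (3.82 CPM) than in other singlets (34.8 CPM).

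The nitric oxide and cyclic GMP genes were high on the receiving side. Of 10 genes 8 were higher in members in 4 of 4 litters, all but the phosphodiesterase genes Pde3a and Pde1c. The 8 include the rule gene Gucy1a1, which the selection placed there, and Nos3, which makes nitric oxide. Pde5a, which degrades cyclic GMP, was at 171.6, 218.1, 209.9 and 120.7 CPM in members of DEX-1, DEX-2, PBS-1 and PBS-2 and at 9.86 CPM in other singlets, and Prkg1, the cyclic GMP-dependent kinase, at 129.0 CPM in all members against 52.5 CPM. Nos3, the endothelial nitric oxide synthase, was at 10.9 CPM in members with both limits and had 1 UMI in the 77 members with neither. These sets were cut on Cldn5, also an endothelial gene.

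Of the mural cell channels 7 of 9 were higher in members in 4 of 4 litters, and the exceptions were Kcnma1 and Cacna1h. Kcnj8 and Abcc9, which encode the pore and the regulatory subunit of the vascular ATP-sensitive potassium channel, were at 20.9 and 7.10 CPM in all members and at 90.5 and 30.2 CPM with neither limit, against 1.25 and 0.450 CPM in other singlets. Kcnk3, the acid-sensitive potassium channel TASK-1, was at 34.6 CPM in all members, 125.6 CPM with neither and 2.74 CPM in other singlets.

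Ligands and receptors of the endothelium to pericyte dialogue split by the lineage limits. The receptors Pdgfrb and Notch3 were higher without the mixed members, Notch3 at 17.9 CPM with both limits and 134.0 CPM with neither, and Heyl, a Notch target, at 1.93 and 76.1 CPM. The endothelial ligands Pdgfb and Dll4 went the other way, at 43.2 and 28.5 CPM with both limits and 3.62 and 4.83 CPM with neither, as did the endothelial receptor Tie1, at 126.8 and 2.41 CPM. Over the whole list 11 of 14 genes were higher in members in 4 of 4 litters and 7 of 14 were higher without the members with both limits than in them.

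All 12 smooth muscle contractile genes were higher in members than in other singlets in 4 of 4 litters, and each was higher with neither limit than with either. Acta2, smooth muscle actin, was at 650.4, 601.9, 723.6 and 334.1 CPM in members of DEX-1, DEX-2, PBS-1 and PBS-2 and at 46.9 CPM in other singlets, and at 2976 CPM with neither limit. Tagln (transgelin) was at 319.3 CPM in all members, 1796 CPM with neither and 33.6 CPM in other singlets. Fibroblast-marked singlets (Pdgfra, Tcf21 and Col13a1 summing to 3 or more) also held these transcripts, Acta2 at 353.4 CPM and Tagln at 244.6 CPM.

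Matrix and mitochondrial genes divided less clearly by the lineage limits, with 9 of 15 and 3 of 7 higher with neither limit than with either. The mitochondrial list includes the rule genes Higd1b and Cox4i2. All 15 basement membrane and matrix genes were higher in members in 4 of 4 litters; Col4a1, a chain of basement membrane collagen, was at 1023 CPM in members, 872.8 CPM with neither limit, 1075 CPM in endothelial-marked singlets (Cldn5, Cdh5 and Pecam1 summing to 3 or more) and 224.8 CPM in other singlets, so it did not single out pericyte RNA as Postn did. For the isoform pairs the UMIs of 1 gene over those of its partner were compared between barcode sets. Since Cox4i2 chose the members, its high ratio to Cox4i1, 0.162, 0.250, 0.197 and 0.158 in members of DEX-1, DEX-2, PBS-1 and PBS-2 and 0.00800 in other singlets, was set by the rule. The ratio of Ndufa4l2 to Ndufa4, which the rule did not use, was 0.416 in members, 0.242 in fibroblast-marked singlets and 0.0315 in other singlets. Cox4i1 itself was at 1378 CPM in members and 1107 CPM in other singlets.

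Members with neither limit were divided by the rule sum, a split made after the sums were seen. The 34 with a sum of 20 or more (5, 12, 14 and 3 in DEX-1, DEX-2, PBS-1 and PBS-2) had a median depth of 9057 UMIs and held Gucy1b1, Postn, Ndufa4l2, Pde5a and Col4a1 in every barcode, with Pdgfrb in 91.2% and Des (desmin) in 97.1% of them. Their level of Postn was 1411, 2528, 1221 and 910.7 CPM in DEX-1, DEX-2, PBS-1 and PBS-2, and that of Gucy1b1 1010, 913.2, 838.0 and 676.5 CPM. Gucy1b1 lay closer together between litters than over all members with neither limit, while Postn still varied, and the PBS-2 values rest on 3 barcodes. Hsd11b1, which regenerates active glucocorticoid, was at 607.6 CPM and Tcf21, a transcription factor of lung mesenchyme, at 688.0 CPM. Tcf21 is also a gene of the fibroblast limit, which 9 of these 34 barcodes met. Their fibroblast list summed to 2627 CPM, against 723.1 CPM in other singlets and 11549 CPM in fibroblast-marked singlets. Cnn1 and Anpep had no UMI, which over these barcodes' pooled UMIs allows up to 8.94 CPM.

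The 43 members with neither limit and a lower sum had a median depth of 9386 UMIs, and contractile and elastic fibre RNA was unevenly spread over them. Eln (elastin) was at 1562, 3216, 3232 and 2586 CPM in DEX-1, DEX-2, PBS-1 and PBS-2, above the high-sum set in 4 of 4 litters (114.4, 76.9, 177.5 and 884.7 CPM). Acta2 was at 2165, 4817, 6500 and 1721 CPM, against 2459, 1250, 3196 and 3981 CPM in the high-sum set, so it was higher in DEX-2 and PBS-1 and lower in DEX-1 and PBS-2. It had a UMI in 60.5% of the lower-sum barcodes and 94.1% of the high-sum ones, so part of the set carried the pooled level. Tagln was higher than in the high-sum set in every litter but PBS-2 (1755 against 2680 CPM). The pericyte genes were lower, Pdgfrb at 56.8 against 369.3 CPM, Trpc6 at 16.2 against 199.6 CPM and Agtr1a at 4.06 against 151.9 CPM. The split was made on the rule genes. Across the 302 members the log10 UMIs of the other pericyte genes correlated with the log10 rule sum at r = 0.80. The contrast between the sets in pericyte genes was therefore partly fixed in advance. The high-sum barcodes held pericyte genes outside the rule, and 9 of the 34 also met the fibroblast limit. The lower-sum barcodes with neither limit are called here only by their rule.

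The other lineage lists showed what else the members held. All 15 endothelial genes and all 8 type 1 alveolar genes were higher in members than in other singlets in 4 of 4 litters, as were 12 of 13 type 2 alveolar genes. The summed type 2 list was at 44119, 73366, 51718 and 72690 CPM in members of DEX-1, DEX-2, PBS-1 and PBS-2, mostly Sftpc, and at 33028 CPM in other singlets. In members with neither limit no gene of these 3 lists was higher in 4 of 4 litters, yet Sftpc had a UMI in 71.4% of them, at 104.2 CPM in DEX-1 and 10233 CPM in PBS-2. The endothelial list summed to 379.1 CPM with neither limit and 8929 CPM with Cldn5 alone, against 8910 CPM in endothelial-marked singlets. It includes Cldn5, Cdh5 and Pecam1, which chose the endothelial-marked singlets, and the type 2 list includes Sftpb. The contrasts between sets cut on these genes were therefore partly fixed in advance.

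Leukocyte RNA was below its level in other singlets. The 7 genes of the leukocyte gate summed to 379.3, 57.2, 314.2 and 85.3 CPM in members of DEX-1, DEX-2, PBS-1 and PBS-2 and to 2491 to 3604 CPM in other singlets of these litters, and none of the 7 was higher in members in 4 of 4 litters. In members with neither limit the list was at 957.3 CPM (1571, 223.4, 1101 and 926.8 CPM in the same order of litters), above the 171.3 CPM of all members. Ptprc was at 37.4 CPM with neither limit and 5.13 CPM in all members, against 88.1 CPM in other singlets. Mast cell genes summed to 126.7 CPM against 15713 CPM in other singlets, which the Hdc limit partly set, and Ms4a2 and Fcer1a had no UMI in members, which allows up to 0.328 CPM. The macrophage list summed to 859.3 CPM in members and 852.9 CPM in other singlets, nearly all of it Lyz2, which was at 839.5 CPM in members. Lyz2 was at 1762 CPM in members with Sftpb alone, 2973 CPM in epithelial-marked singlets and 6.94 CPM in members with Cldn5 alone, so it followed the type 2 epithelial barcodes. Of the fibroblast genes 5 of 12 were higher in 4 of 4 litters, where 20.0% of all genes were, and 1554 of the 3098 genes at 50 CPM or more in members. The list summed to 1212 CPM in members, 2504 CPM with neither limit, 723.1 CPM in other singlets and 11549 CPM in fibroblast-marked singlets, and 87 members also met the fibroblast limit, 39 of those with both limits and 16 of those with neither.

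**Figure D3:**
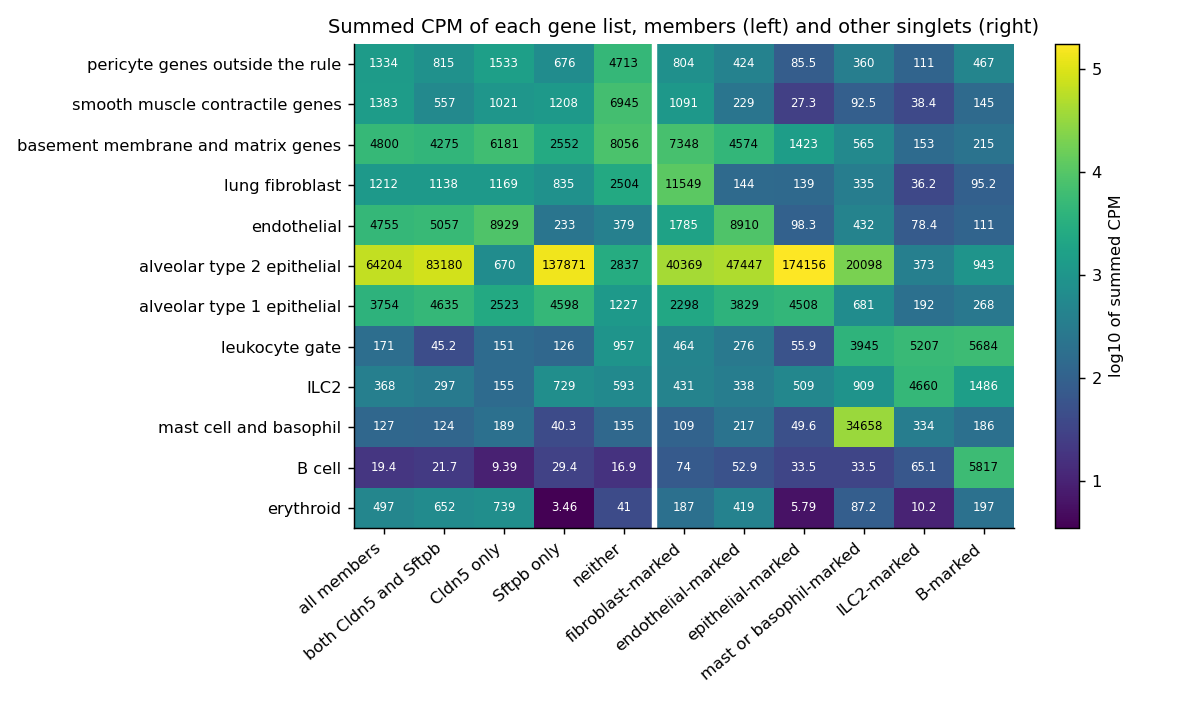
Summed CPM of 12 gene lists (rows, printed in each cell, colour on a log10 scale) in members by lineage limit (left of the white line) and in 6 classes of other singlets (right). The pericyte list reaches 4713 CPM in members with neither limit, the endothelial list 8929 CPM in members with Cldn5 alone and the type 2 epithelial list 137871 CPM in members with Sftpb alone. The last 2 lists include Cldn5 and Sftpb, which cut these sets.

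Among the 3098 genes at 50 CPM or more in members, 1554 were higher than in other singlets in 4 of 4 litters, and the 25 with the highest ratio are described. Higd1b (54.7-fold), Gucy1a1 (43.2-fold) and Cox4i2 (28.9-fold) are among them because the rule used them. The others were led by Postn (42.9-fold), Fam162b (32.8-fold), Gucy1b1 (23.2-fold), Pde5a (16.9-fold) and Ndufa4l2 (14.9-fold). Fam162b, which was in no list, was at 64.3, 88.3, 58.3 and 45.0 CPM in members of DEX-1, DEX-2, PBS-1 and PBS-2. Next came Pdzd2, Myl9, Itga1 (an integrin chain that binds collagen), Acta2, Actc1, Tagln, Gjc1 (the vascular gap junction protein connexin 45), Itm2a, Nkain4 and Adgrg6, from 13.7-fold down to 8.38-fold. Lhfp, Arhgap42, Tpm2, Mcam, Rhoj, Cald1 and Gm13889 completed the 25, at 5.94-fold to 6.60-fold. Actc1, the cardiac actin, is the exception among contractile genes, with 10.2 and 14.2 CPM in the DEX litters and 89.4 and 101.0 CPM in the PBS litters, and it is taken up with the comparison of the groups.

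Against other singlets, members with neither limit gave a partly different set of leading genes, 9 of 25 being shared. Beside the rule gene Higd1b (184.4-fold), Trpc6 (287.7-fold), Agtr1a (247.5-fold), Postn (200.3-fold), Aoc3 (188.9-fold) and Foxs1 (174.5-fold) led it. Aoc3 encodes a vascular amine oxidase and Foxs1 a forkhead factor of mural cells. Aoc3 was at 37.5, 81.6, 90.9 and 31.7 CPM and Foxs1 at 37.5, 98.8, 90.9 and 95.2 CPM in DEX-1, DEX-2, PBS-1 and PBS-2. Cxcl13, a chemokine, was at 116.7, 300.8, 30.3 and 247.6 CPM, and the litters of the groups overlapped. Timp4, Pcdh18, Heyl, Aspn, Cspg4, Des, Kcnj8 and Notch3 were also among the 25.

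Members were a slightly smaller part of the DEX litters than of the PBS litters, within what 4 litters can show. DEX-1 had 45 members among 1732 singlets (2.60%, exact 95% interval 1.90 to 3.46%) and DEX-2 had 74 among 2305 (3.21%, 2.53 to 4.01%). PBS-1 had 66 among 1919 (3.44%, 2.67 to 4.36%) and PBS-2 had 117 among 2642 (4.43%, 3.68 to 5.28%). The intervals of DEX-2 and PBS-1 overlap widely, and the means of 2.90% ± 0.433 and 3.93% ± 0.699 (SD, n = 2) gave p = 0.333 in the two-sided exact permutation test. The median UMIs per member were 25581 and 17573.5 in the litters DEX-1 and DEX-2 and 25241.5 and 32035 in the litters PBS-1 and PBS-2, and the groups overlapped (exact permutation p = 0.667). The cells were sorted on markers that pericytes lack, so these shares do not measure how many pericytes the lungs held.

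Gene levels were compared between DEX and PBS members by summing UMIs per litter (1276106, 1834336, 2024496 and 4019453 UMIs) and testing the sums with the quasi-likelihood test of edgeR. At a Benjamini-Hochberg adjusted p under 0.05, 4 of 10793 genes were called (0.0371%), all lower in DEX, and 476 had an unadjusted p under 0.05. All 4 are genes of striated or heart muscle: Myl7, the atrial myosin light chain, Actc1, Tnnc1, the cardiac troponin C, and Ckm, the muscle creatine kinase. Myl7 had 12 and 21 UMIs in DEX-1 and DEX-2 and 522 and 640 UMIs in PBS-1 and PBS-2 (log2 difference −4.23 ± 0.304 SE, adjusted p = 0.00853). Actc1 had 13, 26, 181 and 406 UMIs (−2.88 ± 0.226, adjusted p = 0.00853), Tnnc1 1, 1, 57 and 96 UMIs (−5.16 ± 0.469, adjusted p = 0.0171) and Ckm 0, 1, 43 and 82 UMIs (−5.75 ± 0.601, adjusted p = 0.0360).

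Nearly all of these UMIs came from 2 barcodes. Over 10 heart muscle genes, listed after the calls were seen, 1 member of PBS-1 held 1620 of that litter's 1680 UMIs and 1 member of PBS-2 held 1914 of 2025, while the members of DEX-1 and DEX-2 held 45 and 76. The PBS-1 barcode had 52989 UMIs in all, a rule sum of 3 and 62 UMIs of Sftpb, and the PBS-2 barcode had 37272, a sum of 5 and 91, and neither had a UMI of Cldn5. They held 97.7% and 94.7% of their litters' Myl7 UMIs. Without them, in a comparison added after this was seen, 0 of 10753 genes were called by edgeR (0%; 459 at an unadjusted p under 0.05), and Myl7 (log2 difference 0.52 ± 0.362 SE) and Actc1 (0.91 ± 0.581 SE) were no longer lower in DEX. Among other singlets the same 10 genes had 249, 1715, 290 and 1919 UMIs in DEX-1, DEX-2, PBS-1 and PBS-2, so a DEX litter also contained heart muscle RNA, with 1 barcode of 100 or more such UMIs in DEX-2 and 2 in PBS-2.

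**Figure D4:**
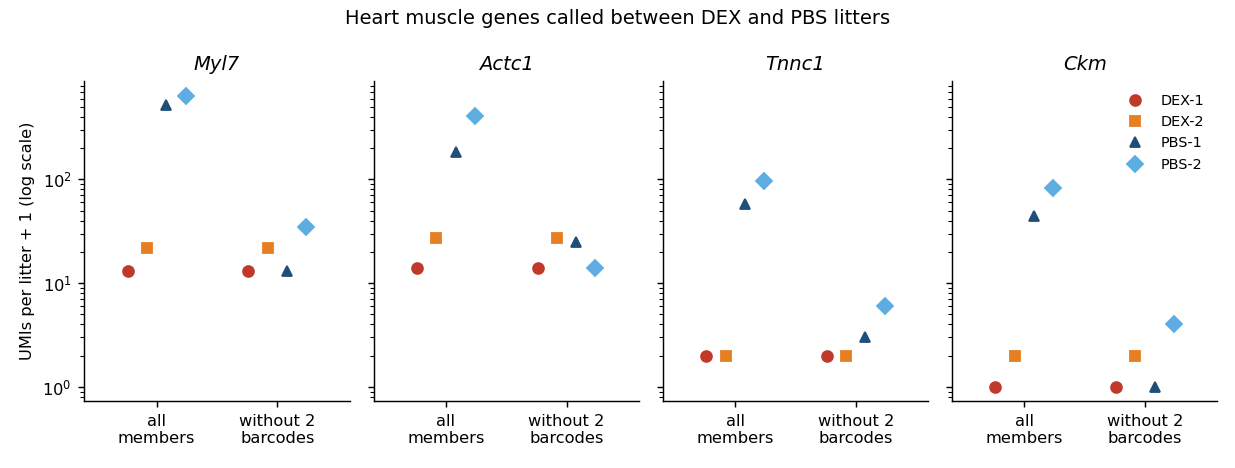
UMIs summed over members of each litter, plus 1, on a log y axis for the 4 called genes, in all members and without the 2 barcodes rich in heart muscle UMIs. With all members the PBS litters stand above both DEX litters, at 522 and 640 UMIs of Myl7, and without the 2 barcodes the litters lie close together, at 12 to 34 UMIs.

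No pericyte gene was called between DEX and PBS. Of the 26 pericyte genes outside the rule 23 could be tested, 17 had a positive and 6 a negative log2 difference, and the median was 0.24, beside 0.00 over all genes tested. On the TMM-scaled CPM of this test, Gucy1b1 was at 123.6 and 166.5 in DEX-1 and DEX-2 and 135.5 and 98.8 in PBS-1 and PBS-2 (log2 difference 0.33 ± 0.208 SE, adjusted p = 0.987), and Postn at 170.4 and 276.1 against 183.8 and 121.5 (0.57 ± 0.264, adjusted p = 0.987). For both genes the litters of the groups overlapped. The litters did not overlap for 3 of the 23, all higher in DEX, where 16.6% of all genes lay higher and 17.2% lower without overlap; these were Pdgfrb (51.5 and 67.0 against 49.8 and 30.3, log2 difference 0.62 ± 0.267), Heyl (19.02 and 18.2 against 7.74 and 10.8, 0.96 ± 0.294) and Kcnk3 (42.8 and 47.7 against 27.1 and 30.8, 0.64 ± 0.190), each at adjusted p = 0.987.

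Of 15 endothelial genes tested in all members, 15 had a negative log2 difference and 10 lay lower in DEX without overlap of the litters, but none was called. Over all genes tested 5345 of 10793 were negative and 17.2% lay lower without overlap. Tie1 was at 88.0 and 92.0 in DEX-1 and DEX-2 and 122.9 and 134.5 in PBS-1 and PBS-2 (log2 difference −0.52 ± 0.146 SE, adjusted p = 0.987). Without the members that met both limits 13 of 14 endothelial genes were negative and 6 lay lower without overlap. Of all 9801 genes tested in that set 4894 were negative and 1481 lay lower without overlap. With neither limit 3 could be tested, 2 of them negative and 0 without overlap, where 1890 of all 3816 genes were negative and 508 lay lower without overlap. Without the members that met both limits 8 of 9801 genes were called (0.0816%), all of them heart muscle genes and lower in DEX, and the median of the pericyte list was 0.17 over 22 genes, 17 of them positive. In members with neither limit the median of the pericyte list was 0.01 over 18 genes, 9 with a positive and 9 with a negative difference, and 0 of 3816 genes were called by edgeR (0%; 59 at an unadjusted p under 0.05). There, 9 of 9 tested cell cycle genes had a positive difference, with a median of 0.78 and no call, where 1926 of all 3816 genes were positive. Of 14 tested genes of immediate early response and dissociation, 11 were negative in that set, with a median of −0.21 and no call. In all members 9 of 14 cell cycle genes were positive and 5 negative, with a median of 0.22. The part of the endothelial share in the differences of the pericyte genes was not tested.

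**Figure D5:**
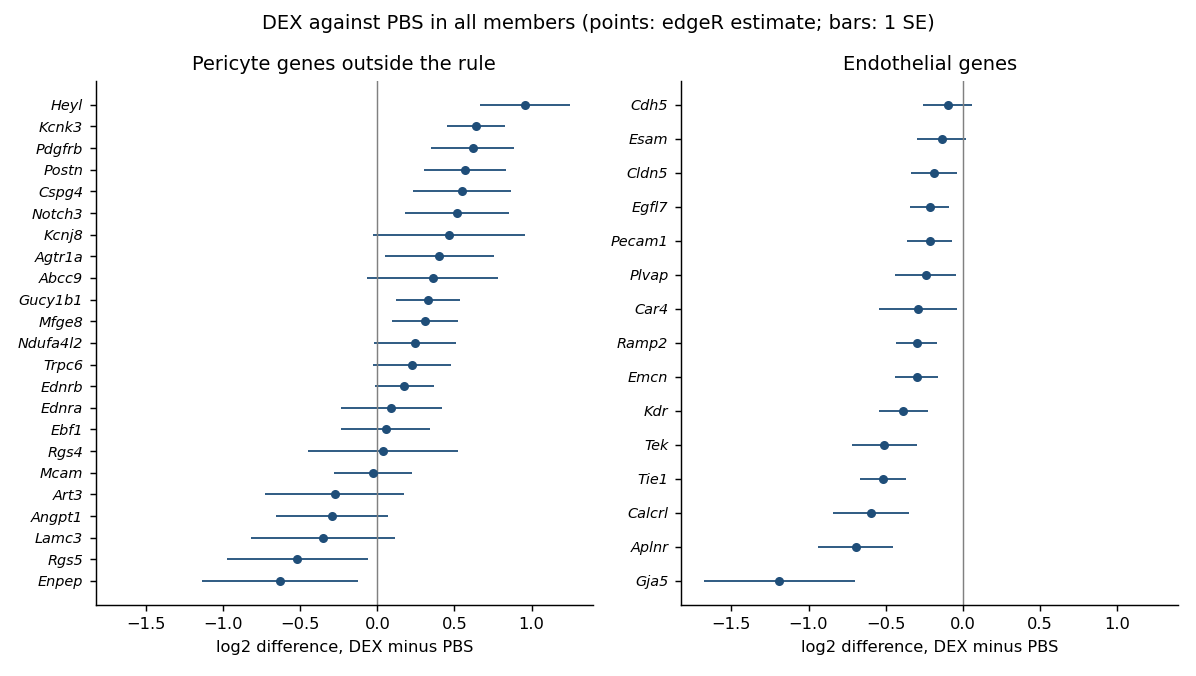
The log2 difference between DEX and PBS members (x axis, points, bars of 1 SE, 2 litters per group) for the 23 tested pericyte genes outside the rule (left) and the 15 endothelial genes (right). Pericyte genes lie on both sides of 0, from −0.63 for Enpep to 0.96 for Heyl, and every endothelial point is below 0, with no gene past the threshold.

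Of the genes that glucocorticoids are known to induce none of 17 tested was called, 8 had a positive and 9 a negative log2 difference, and their median was −0.08. The litters did not overlap for 6 of them, 2 higher and 4 lower in DEX (16.6% and 17.2% of all genes). Fkbp5, a chaperone gene induced by the receptor, was at 15.1 and 22.7 in DEX-1 and DEX-2 and at 20.3 and 24.5 in PBS-1 and PBS-2 on the TMM-scaled CPM (log2 difference −0.23 ± 0.275 SE), and Tsc22d3 (GILZ) at 107.8 and 112.5 against 116.1 and 121.5 (−0.11 ± 0.141). Cdkn1a, a cell cycle inhibitor, was at 149.8 and 225.5 against 118.0 and 116.0 (0.69 ± 0.198), and Dusp1, a phosphatase, at 615.8 and 637.4 against 807.4 and 801.3 (−0.36 ± 0.108), each without overlap of the litters and at adjusted p = 0.987. The receptor gene Nr3c1 was at 127.6 and 109.6 against 125.3 and 124.8, with overlapping litters.

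The smooth muscle, matrix, channel, cyclic GMP, and PDGF and Notch lists likewise held no called gene. Their median log2 differences were 0.24 over 10, 0.04 over 15, 0.22 over 7, 0.31 over 9 and −0.04 over 14 genes tested. The cyclic GMP list includes the rule gene Gucy1a1. The smooth muscle median turned to −0.20 without the members that met both limits (7 of 10 genes negative) and was −0.24 in members with neither limit. In all members without the 2 heart muscle barcodes it was 0.35, with 9 of 10 genes positive. Those barcodes met the Sftpb limit alone, so the set without both limits still held them. The cyclic GMP and matrix medians stayed positive without the members that met both limits, at 0.0039 and 0.12. In members with neither limit both were −0.20. The channel median was 0.22 and 0.19 in these sets, and the PDGF and Notch median 0.04 and −0.04. The test of whether the DEX difference in members departed from that in the other singlets of the same litters called 0 of 15289 genes with edgeR (0%; 785 at an unadjusted p under 0.05).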

How the data were processed

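The members, gene lists and tests were chosen with earlier results of these data known. The authors counted UMIs with Cell Ranger 7 on mm10, per the labels and the submitters' processing notes, and the deposited values are raw counts per gene and barcode, with 32285 genes and 4 hashtags in 1 matrix. Hashtags were matched to litters by their number in the labels. No caller for doublets of 1 litter was run. Levels are counts of a gene per 1000000 counts of the pooled barcodes. For the test, counts were summed per litter and fitted with edgeR 4.0.16 (TMM scaling, filterByExpr, two-sided quasi-likelihood test, 2 litters per group; tested on simulated data). A standard error is the log2 difference over the root of its F statistic. Genes of the rule got values only, and were counted in the lists that hold them. The text names the 6 markers, list genes beside counts over the whole list, called genes, and the 25 genes with the highest ratio to other singlets at 50 CPM or more; Aoc3, Foxs1, Cxcl13 and other leading genes of members with neither limit were chosen after their values were seen. Alternatives used DESeq2 1.42.0, limma 3.58.1 and other limits. Thinning drew 5000 UMIs per barcode, leaving out 18 shallower members. Gene positions come from GENCODE M21 (GRCm38).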

Additional observations from a re-analysis of the deposited data

Results flagged for a closer look

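Pericyte transcripts also appeared in data that no comparison used: 178 barcodes met the marker and quality limits but not the single-hashtag limits, and were assigned to no litter. They had a median rule sum of 7 UMIs, as the members did, at a median depth of 9291 UMIs, and the 26 other pericyte genes summed to 1908 CPM in them, against 1334 CPM in members and 297.8 CPM in other singlets. The 27 with fewer than 10 hashtag UMIs reached 6890 CPM, at a median depth of 5829 UMIs, and none of them held both Cldn5 and Sftpb at the limits, where 27.8% of the 151 with several hashtags did.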

How the results depend on the processing

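The count of 4 genes called between DEX and PBS depended on the fit. It was 7 with DESeq2 (6 heart muscle genes, and AY036118 higher), 0 with limma-voom (475 at an unadjusted p under 0.05), 95 without a filter on low counts (41 higher in DEX), 43 with the mother number as a replicate block (12 higher), 8 without the members holding both Cldn5 and Sftpb, 0 without those holding either, 0 at a marker limit of 5 (511 unadjusted), 1 (Myl7) after thinning to 5000 UMIs and 8 at a hashtag ratio of 5. Leaving out 1 litter gave 3 to 60 calls, 13 without DEX-1 (5 higher in DEX), 60 without DEX-2 (40 higher), 8 without PBS-1 and 3 without PBS-2. Among alternatives chosen after seeing the data, it was 0 without the 2 heart muscle barcodes and 2 (Cxcl12 and Stmn2, both lower in DEX) at a marker limit of 20. The difference of Actc1 turned to 1.76 without Cldn5 or Sftpb and to 0.91 without the 2 barcodes, that of Myl7 to 0.52 without the 2 barcodes, that of Gucy1b1 to −0.11 without Cldn5 or Sftpb and that of Trpc6 to −0.011 without PBS-2 (0.409 without PBS-1). The interaction test called 11 genes without the members holding both, 7 of them of heart muscle. The share of members, the share with both limits and the median depth kept their direction (lower in DEX) under all 9, 11 and 4 alternatives, but not their size. The share with both limits differed by −18.2 percentage points, −6.09 after thinning and −9.68 (without PBS-2) to −26.7 (without PBS-1) with a litter left out. The share of members differed by −1.03 points, −0.535 (without PBS-2) to −1.52 (without PBS-1) with a litter left out, −1.74 at a marker limit of 2 and −0.572 at 20. Median depth differed by −7061 UMIs, −3057 (without DEX-2) to −11065 (without DEX-1), and −3664 without PBS-2. Except for the 2 barcodes, the cause of these changes was not tested. The mother numbers are not stated to pair litters, and deviations of DEX-1 and PBS-1 correlated at 0.20 across genes.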
